A study of Homo sapiens with 18 samples.

Results

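Decitabine (DAC), a deoxycytidine analogue used against myeloid leukaemia, was compared with its solvent dimethyl sulfoxide (DMSO) in MOLM-13, a human acute myeloid leukaemia line of monocytic type. The comparison took the 3 samples labelled DAC and the 3 labelled DMSO for this line, 6 of the 18 samples of the series, and every one of the 17475 genes listed for them. The series exposed MOLM-13 and a second myeloid leukaemia line, HL-60, to DMSO, DAC or the related nucleoside NTX-301 for 48 h in serum-supplemented medium, with 3 samples per group. DAC was used at 15 nM in MOLM-13 and 30 nM in HL-60, and the DMSO samples carried solvent only. The labels describe triplicates in 6-well plates but not whether these were separate cultures, so the p-values measure the spread between these samples, part of which may be technical. MOLM-13 is 1 line from 1 patient, which limits it as a model.

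DAC enters cells through nucleoside transporters, is phosphorylated by deoxycytidine kinase and is built into DNA during S phase. There it traps the maintenance methyltransferase DNMT1 as a covalent adduct, so that methylation is lost as cells divide, and the adducts can also set off a DNA damage response. In myeloid leukaemia cells the drug is known for slowed growth and for partial differentiation. MOLM-13 carries a fusion of KMT2A to MLLT3, which drives HOXA and MEIS1 expression, and an internal tandem duplication of FLT3.

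RNA was measured by stranded total RNA sequencing, and each gene had 1 normalized log2 value per sample. All 10 of the myeloid and MOLM-13 markers checked were listed, among them FLT3, HOXA9, MEIS1, MPO and LYZ, and their summed linear value was 1.76e+05 to 1.82e+05 in DMSO and 2.41e+05 to 2.55e+05 with DAC. Of the 10, 5 were called higher, 3 lower (FLT3, HOXA9 and MEIS1) and 2 neither way, and LYZ, the most abundant, was among those higher. Of the markers of other lineages, 1 of 5 for T cells (CD3D), 1 of 5 for B cells (PAX5), 3 of 5 erythroid genes (HBA1, HBA2, HBB), 1 of 4 megakaryocyte genes (ITGA2B) and 2 of 5 epithelial or stromal genes (KRT8, COL1A1) were listed. Of these, KRT8 and COL1A1 were called higher with DAC, and their summed value was 91.8 to 92.8 in DMSO and 104 to 112 with DAC. DAC replicate 3 stood apart for the most abundant small structured RNAs, which are the signal recognition particle RNA, the 7SK RNA and the RNase P RNA. RN7SL1 was at 20.45, 20.40 and 20.49 in DMSO and 20.60, 20.47 and 19.95 with DAC, and RPPH1 at 19.47, 19.37 and 19.41 in DMSO and 19.61, 19.56 and 18.79 with DAC. The 10 highest genes held 10.8% to 11% of the linear sum in the DMSO samples, 11.8% and 11.6% in DAC replicates 1 and 2, and 9.49% in DAC replicate 3.

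With DAC, 2689 genes rose and 3705 fell (limma on the log2 values, adjusted p below 0.05), which is 15.4% and 21.2% of the 17475 genes tested. The changes were small. The median absolute difference of a called gene was 0.181 on the log2 scale (1.13-fold), against a median SD between replicates of 0.0385 in DMSO and 0.0429 with DAC. A log2 difference of at least 0.5 was reached by 158 called genes, 133 higher and 25 lower, and one of at least 1 by 4. In 4014 genes (23%) the 3 DAC values all lay above the 3 DMSO values, and in 4356 (24.9%) all below. Setting each sample's median to the same value lowered the differences by 0.037 and turned the split into 1960 higher and 5731 lower. The median difference over all genes, 0.0013 as deposited, became -0.036 under this setting. Differences were small in genes of low level, with a median absolute difference of 0.00384 below a level of 3 and 0.114 at 13 and above.

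Complement component C3, the central protein of the complement cascade, had the highest rise. It was at 8.86, 8.93 and 8.995 in DMSO and 10.29, 10.23 and 10.19 with DAC (log2 difference 1.31 ± 0.048 (SE), limma adjusted p = 4.07e-08). The 3 DAC values lay more than 1 log2 unit above the 3 DMSO values. DNASE2, the acid nuclease of lysosomes, was at 8.97, 8.87 and 9.13 in DMSO and 10.17, 10.13 and 10.13 with DAC (log2 difference 1.15 ± 0.058 (SE), limma adjusted p = 1.88e-07). AXL, a receptor tyrosine kinase that takes part in the uptake of dead cells, was at 10.06, 10.19 and 10.07 in DMSO and 11.21, 11.17 and 11.13 with DAC (log2 difference 1.07 ± 0.041 (SE), limma adjusted p = 4.14e-08). Neither gene had overlapping groups. The cyclin-dependent kinase inhibitor CDKN1A (p21) was at 13.32, 13.27 and 13.25 in DMSO and 14.19, 14.16 and 14.16 with DAC (log2 difference 0.89 ± 0.029 (SE), limma adjusted p = 2.87e-08), and its 3 DAC samples differed among themselves by 0.03. The other genes among the 10 highest were LOC105375855 (0.96), ADGRE4P (0.92), CHRNA6 (0.89), CYBB (0.89), FGR (0.87) and CD86 (0.86). CYBB is the catalytic subunit of the phagocyte oxidase, FGR a SRC-family kinase of myeloid cells, and CD86 a costimulatory ligand for T cells.

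The 10 lowest genes under the same rule (called, no overlap, readthrough genes left out) included a pair of fatty acid desaturases. FADS2 was at 10.26, 10.26 and 10.34 in DMSO and 9.55, 9.60 and 9.60 with DAC (log2 difference -0.70 ± 0.053 (SE), limma adjusted p = 3.54e-06), and SCD at 15.61, 15.63 and 15.65 in DMSO and 15.04, 14.98 and 14.97 with DAC (log2 difference -0.63 ± 0.026 (SE), limma adjusted p = 5.77e-08). INSIG1, which holds back the sterol-sensing transcription factors, fell by 0.59. IGLL1, a surrogate light chain of early B cells, was at 9.78, 9.86 and 9.85 in DMSO and 9.16, 9.05 and 9.16 with DAC (log2 difference -0.71 ± 0.05 (SE), limma adjusted p = 2.31e-06), and the light-chain constant gene IGKC fell by 0.60. The list also held NREP (-0.60) and 4 histone genes. These were H4C9, H4C12, H4C11 and H2BU1, and in the first 3 of them DAC replicate 3 was the lowest sample. H4C9 was at 13.31, 13.42 and 13.39 in DMSO and 12.84, 12.89 and 12.50 with DAC, so the size of its fall rested in part on that replicate. Over all 14 alternatives its difference ranged from -0.70 to -0.51 and stayed called. A readthrough gene, HSPE1-MOB4, had a lower called value (-1.04), but its replicates were at 8.67, 9.32 and 9.54 in DMSO and 7.86, 8.57 and 7.98 with DAC, and its reads cannot be told apart from those of the genes it joins.

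**Figure D1:**
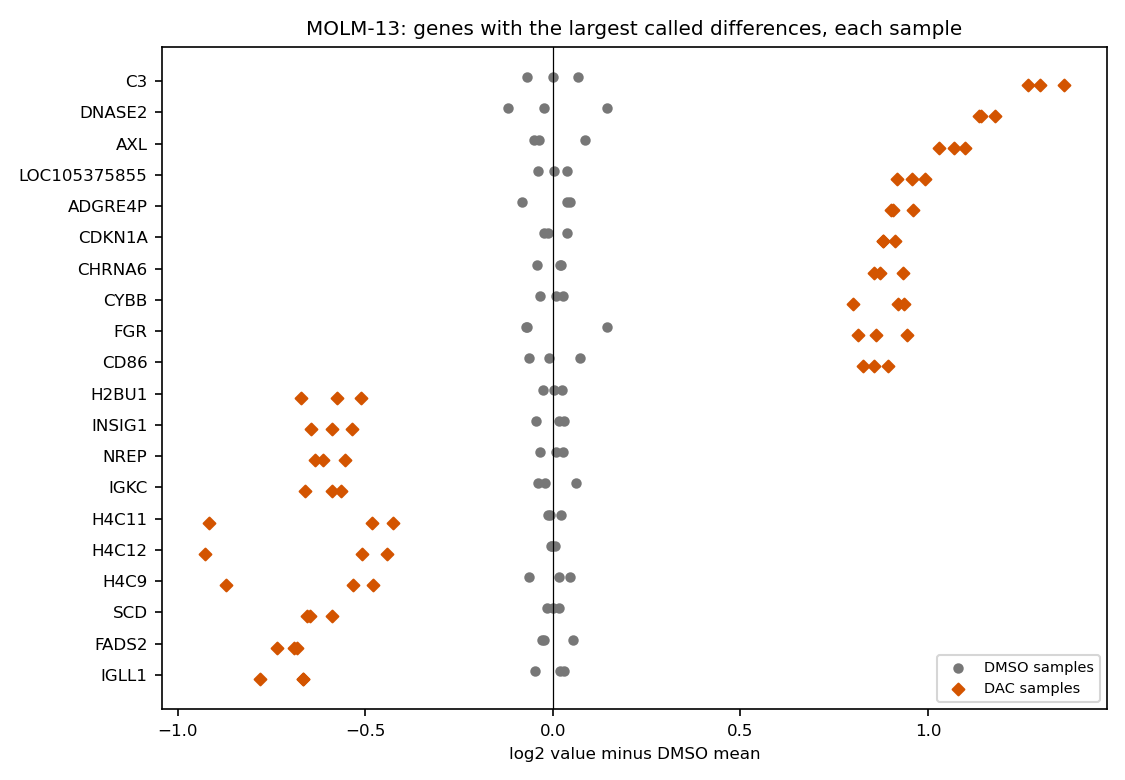
Log2 value minus the DMSO mean for 20 genes, 10 from each end of the ranking of called differences, in each of the 3 DMSO (grey circles) and 3 DAC samples (orange diamonds) of MOLM-13. No DAC point overlaps the DMSO points of its gene, and DAC replicate 3 lies furthest left for H4C9, H4C11 and H4C12.

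The calls fell unevenly across gene families. Among replication-dependent histones 90.5% of members were called lower, and among DNA replication genes 98%, beside 21.2% of all genes. Among p53 targets 67.4% were called higher, and among monocyte and macrophage genes 68.2%, beside 15.4%.

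**Figure D2:**
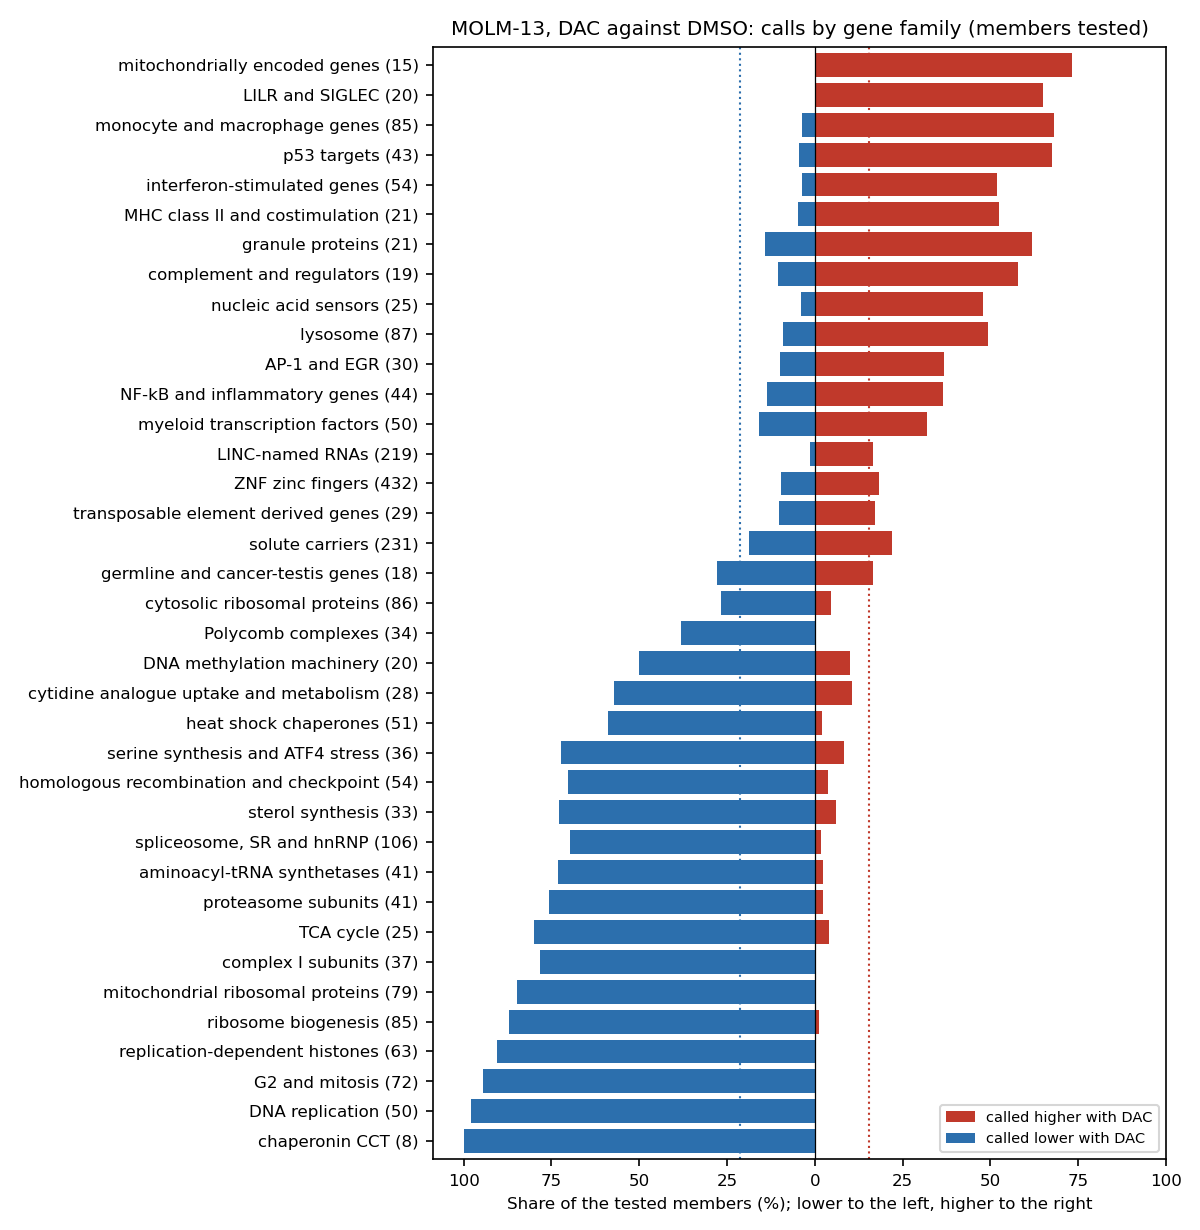
Share of the tested members of each gene family called lower (blue, to the left) or higher (red, to the right) with DAC in MOLM-13, with the number tested in parentheses; dotted lines mark the 21.2% lower and 15.4% higher among all genes. The median differences of the zinc finger, solute carrier, transposable element derived, germline and cytosolic ribosomal protein families change sign under another scaling.

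Replication-dependent histone genes, which are transcribed in S phase to package new DNA and whose mRNAs lack poly(A) tails, showed the lowest median of all lists. Of 63 tested, 57 fell and 0 rose, with a median log2 difference of -0.40 beside 0.0013 over all genes. All 13 tested H4 genes fell (median -0.54), as did 15 of 16 H2B, 15 of 16 H2A, 10 of 12 H3 and 4 of 6 H1 genes. The linker histone gene H1-2 was at 15.32, 15.40 and 15.41 in DMSO and 14.98, 14.94 and 14.91 with DAC (log2 difference -0.43 ± 0.027 (SE), limma adjusted p = 9.02e-07). H2AC12 was at 14.21, 14.32 and 14.30 in DMSO and 13.80, 13.80 and 13.70 with DAC, and H4C14 at 14.22, 14.31 and 14.30 in DMSO and 13.76, 13.76 and 13.65 with DAC. In each of these genes every DAC sample lay below every DMSO sample. The median over the 63 genes, relative to the DMSO mean, was -0.037, 0.033 and 0.006 in the DMSO samples and -0.403, -0.341 and -0.461 in the DAC samples. Many of these genes are near-identical copies, so the split of reads among them is uncertain. Of the 12 replication-independent variants, 5 fell and 1 rose. Those that fell included H2AZ1 (-0.40), the variant at gene starts, and CENPA (-0.45), the centromeric variant. RNA from a whole culture cannot tell fewer cells in S phase from less histone RNA per cell, and the same holds for every family below.

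Of the 50 genes of DNA replication, 49 fell and 0 rose (median -0.27, lowest -0.48). Licensing and helicase genes fell in 21 of 22, and polymerase and fork genes in 28 of 28. GINS2, a subunit of the replicative helicase, was at 11.68, 11.76 and 11.73 in DMSO and 11.26, 11.24 and 11.23 with DAC (log2 difference -0.48 ± 0.034 (SE), limma adjusted p = 2.27e-06). MCM2 and MCM6, which form part of the ring of that helicase, were at 14.49, 14.54 and 14.53 in DMSO and 14.16, 14.15 and 14.13 with DAC, and at 14.32, 14.35 and 14.36 in DMSO and 13.99, 14.01 and 13.94 with DAC. PCNA, the sliding clamp of the polymerases, was at 15.17, 15.24 and 15.21 in DMSO and 14.99, 14.90 and 14.88 with DAC (log2 difference -0.28 ± 0.031 (SE), limma adjusted p = 4.36e-05). The groups did not overlap in any of these. The 1 member without a call was the licensing factor CDT1 (-0.11, limma adjusted p = 0.0653). GMNN, which inhibits CDT1, fell by 0.38. The family median was -0.236, -0.271 and -0.297 in the 3 DAC samples and within 0.022 of 0 in the 3 DMSO samples.

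Genes of G2 phase and mitosis gave the same kind of picture, with 68 of 72 lower, 0 higher and a median of -0.26. All 35 spindle and kinetochore genes and all 10 cohesin and condensin genes fell. PBK, a mitotic kinase, was at 12.51, 12.60 and 12.55 in DMSO and 12.07, 12.01 and 12.03 with DAC (log2 difference -0.52 ± 0.032 (SE), limma adjusted p = 8.22e-07). DLGAP5, a spindle protein, was at 12.88, 13.01 and 12.97 in DMSO and 12.57, 12.52 and 12.43 with DAC. The cyclin B partner CDK1 was at 13.21, 13.33 and 13.28 in DMSO and 13.09, 12.91 and 12.94 with DAC. DAC replicate 1 was the highest of the 3 DAC samples for CDK1, yet still below the 3 DMSO samples. MKI67, the proliferation antigen, fell by 0.17 (by 0.077 under quantile normalization), TOP2A by 0.30 and CENPF by 0.28. Among 27 regulators of G1 and S, 16 fell, with CDC25A (-0.38), CCNA2 (-0.36) and CDK2 (-0.29) at the head. The 2 that rose were the D-type cyclins CCND2 (0.20) and CCND1 (0.20), and the call of CCND1 was lost in 6 of 14 alternatives.

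Promoter windows from RefSeq (GRCh38.p14, 250 bases before to 50 after each start, 300 in all) were read for these families because a pair of short motifs is known to mark cell cycle genes. The cell cycle homology region, TTTGAA on either strand, was present in 40 of the 60 windows matched for the 72 G2 and mitosis genes (66.7%), beside 10.2% of the 10050 windows of tested protein-coding genes. The E2F motif, searched as TTTGGCGC, TTTGCCGC, TTTCGCGC or TTTCCCGC on either strand, was present in 17 of the 42 windows matched for the 50 replication genes (40.5%), beside 5.6%. A match describes the letters of the window and does not show binding. Members with and without a match had the same median difference, -0.26 and -0.26 for the first motif and -0.27 and -0.27 for the second. The stretches below are shown because they hold the motif upstream of the start in genes described here. They run 5′ to 3′ on the gene's strand, with motif matches in capitals. CCNB2, BUB1B, PRC1 and HMMR act in mitosis, and MCM6, GINS2 and PCNA in replication. On GRCh38.p14 they lie at chr15:59105046-59105145 (plus strand), chr15:40160969-40161068 (plus), chr15:90994536-90994635 (minus), chr5:163460532-163460631 (plus), chr2:135876514-135876608 (minus), chr16:85688955-85689054 (minus) and chr20:5126623-5126722 (minus), each ending upstream of the annotated start.
CCNB2: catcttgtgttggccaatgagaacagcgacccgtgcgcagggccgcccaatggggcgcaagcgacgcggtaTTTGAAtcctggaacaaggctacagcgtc
BUB1B: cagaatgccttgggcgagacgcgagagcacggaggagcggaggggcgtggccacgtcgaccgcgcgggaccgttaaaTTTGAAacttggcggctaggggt
PRC1: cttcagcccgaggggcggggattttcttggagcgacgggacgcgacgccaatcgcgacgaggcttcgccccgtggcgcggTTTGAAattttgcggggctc
HMMR: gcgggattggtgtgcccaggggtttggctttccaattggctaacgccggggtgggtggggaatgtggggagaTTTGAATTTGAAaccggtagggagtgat
MCM6: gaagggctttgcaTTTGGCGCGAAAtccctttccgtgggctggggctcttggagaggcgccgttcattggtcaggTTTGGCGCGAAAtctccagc
GINS2: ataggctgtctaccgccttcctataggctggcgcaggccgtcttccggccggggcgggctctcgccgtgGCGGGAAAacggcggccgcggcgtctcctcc
PCNA: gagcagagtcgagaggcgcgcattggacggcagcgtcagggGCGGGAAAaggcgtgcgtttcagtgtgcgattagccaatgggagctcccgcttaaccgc
The matches of the 4 mitotic genes begin 29 bases (CCNB2), 23 (BUB1B), 20 (PRC1), and 28 and 22 (HMMR) before the start. With DAC these 4 genes fell by 0.32, 0.32, 0.38 and 0.30. HMMR, which binds hyaluronan and the spindle, was at 12.71, 12.84 and 12.75 in DMSO and 12.53, 12.45 and 12.41 with DAC. MCM6 holds its E2F letters on both strands at 2 places, each an unbroken run of 12 bases. The MCM6 matches begin 152, 148, 90 and 86 bases before the start, that of GINS2 31 and that of PCNA 59.

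DNA repair genes that act at stalled forks were also lower in the main. Of 54 genes of homologous recombination and the checkpoint, 38 were lower and 2 higher (median -0.15). Recombination genes fell in 21 of 26, Fanconi genes in 8 of 13 and checkpoint genes in 9 of 15. UBE2T, the ubiquitin-conjugating enzyme of the Fanconi pathway, was at 11.23, 11.43 and 11.32 in DMSO and 10.92, 10.98 and 10.79 with DAC (log2 difference -0.43 ± 0.057 (SE), limma adjusted p = 1.43e-04). CHEK1, a checkpoint kinase, fell by 0.29 and BRCA1 by 0.22. The damage kinase ATM was at 0.06, and its call was lost in 8 of 14 alternatives. In mismatch and base excision repair 12 of 26 fell and 1 rose. Base excision and strand break genes fell in 8 of 20 (40%, median level 11.28), near the 41% of all genes at a level of 11 to 13. Mismatch genes fell in 4 of 6. UNG, which removes uracil from DNA, was at 12.13, 12.17 and 12.14 in DMSO and 11.75, 11.70 and 11.69 with DAC (log2 difference -0.43 ± 0.027 (SE), limma adjusted p = 9.02e-07). The mismatch gene MSH6 (-0.29) fell as well.

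Of the 20 genes of the DNA methylation machinery, 10 fell and 2 rose. Median levels ran from 11.65 for the readers to 13.19 for the writers and cofactors. Among all genes 41% fell at a level of 11 to 13 and 54.4% at 13 and above. DNMT1, the target of DAC and the enzyme that copies methylation onto new strands, was at 14.58, 14.51 and 14.53 in DMSO and 14.34, 14.38 and 14.36 with DAC (log2 difference -0.18 ± 0.023 (SE), limma adjusted p = 1.12e-04). UHRF1, which brings DNMT1 to hemimethylated DNA, was at 14.34, 14.26 and 14.31 in DMSO and 13.96, 13.998 and 13.96 with DAC (log2 difference -0.33 ± 0.025 (SE), limma adjusted p = 3.67e-06). The groups were separate in both genes. Under quantile normalization the difference of DNMT1 was -0.080 and stayed called. The de novo enzyme DNMT3B was at -0.13 and lost its call in 3 of 14 alternatives, and DNMT3A was not called (-0.03, limma adjusted p = 0.558). Among the demethylases TET2 rose (0.19), while TET1 (-0.02) and TET3 (-0.02) were not called. The methyl-CpG binding genes ZBTB33 (-0.28) and MBD6 (0.36) moved in opposite directions. Polycomb genes, which maintain repressive histone marks, had 13 of 34 lower and 0 higher, with BMI1 at -0.27 and RBBP7 at -0.28. The shares lower were 30% for complex 1 (median level 11.03) and 50% for complex 2 (12.3). These lie around the 41% of all genes lower at a level of 11 to 13.

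Genes that take up, activate or break down cytidine analogues were lower in 16 of 28 and higher in 3. DCK, the kinase that activates DAC, was at 12.23, 12.32 and 12.29 in DMSO and 12.16, 12.001 and 12.09 with DAC (log2 difference -0.20 ± 0.041 (SE), limma adjusted p = 0.00269). SAMHD1, which hydrolyses deoxynucleotide triphosphates, was at 12.80, 12.86 and 12.87 in DMSO and 13.09, 13.06 and 13.03 with DAC (log2 difference 0.22 ± 0.027 (SE), limma adjusted p = 9.17e-05). The transporter SLC29A1 (-0.04) and the deaminase CDA (0.12, limma adjusted p = 0.0714) were not called. Deoxynucleotide synthesis genes fell in 6 of 9, among them RRM1 (-0.26) and RRM2 (-0.21). TYMS, thymidylate synthase, was at -0.06 without a call.

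Sterol synthesis genes fell in 24 of 33 and rose in 2 (median -0.26). Of the 20 enzymes of the pathway 19 fell and 1 rose, whereas of the 13 uptake and control genes 5 fell. ACAT2, the first step, was at 12.76, 12.85 and 12.88 in DMSO and 12.43, 12.39 and 12.28 with DAC. FDPS, which makes farnesyl diphosphate, was at 13.44, 13.46 and 13.53 in DMSO and 13.06, 13.02 and 13.01 with DAC (log2 difference -0.44 ± 0.029 (SE), limma adjusted p = 1.24e-06). HMGCS1 fell by 0.36 and SQLE by 0.24. SREBF1 fell by 0.33, while SREBF2, the regulator most tied to the sterol genes, was not called (0.02). TM7SF2, a late reductase, rose (0.32). In fatty acid synthesis and desaturation 13 of 22 fell and 0 rose (median -0.15), with FADS1 at -0.53 and FASN at -0.26 beside the SCD and FADS2 values above. The sterol regulatory element, searched as TCACNCCAC on either strand, was found in 1 of 27 promoter windows of the sterol list, beside 1.16% of protein-coding windows.

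Serine synthesis and the ATF4 stress programme had 26 of 36 lower and 3 higher (median -0.21). ATF4, the transcription factor of the amino acid response, was at 14.86, 14.85 and 14.89 in DMSO and 14.53, 14.45 and 14.41 with DAC (log2 difference -0.41 ± 0.032 (SE), limma adjusted p = 4.26e-06). PHGDH and PSAT1, the first enzymes of serine synthesis, were at 11.93, 11.88 and 11.97 in DMSO and 11.53, 11.54 and 11.57 with DAC, and at 12.90, 12.89 and 12.90 in DMSO and 12.54, 12.54 and 12.54 with DAC. All 3 genes had groups apart from each other by more than their spread. ASNS, asparagine synthetase, fell by 0.31, TRIB3 by 0.27 and SHMT2 by 0.24. DDIT4 (0.48) and SESN2 (0.32), which dampen mTOR signalling, rose, as did CEBPB (0.19), whose call was lost under quantile normalization. The amino acid response element, searched as TGATGNAA on either strand, was in 6 of 31 windows of the list (19.4%), beside 1.74% of protein-coding windows.

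Some families of protein production fell broadly but by less. Ribosome biogenesis genes were lower in 74 of 85 and higher in 1 (median -0.18). NIP7 fell by 0.39, BRIX1 by 0.37, and NPM1, the abundant nucleolar chaperone, had means of 16.96 ± 0.053 in DMSO and 16.65 ± 0.061 with DAC (SD, n = 3 each; log2 difference -0.31 ± 0.036 (SE), limma adjusted p = 7.02e-05). Of the aminoacyl-tRNA synthetases 30 of 41 fell, 20 of 24 cytosolic and 10 of 17 mitochondrial. AARS1 (-0.32) and YARS1 (-0.33) stood near the front. Translation factors had 25 of 45 lower (55.6%, at a median level of 14.15), near the 54.4% of all genes at a level of 13 and above. The poly(A)-binding protein gene PABPC1 was at 17.50, 17.46 and 17.48 in DMSO and 17.71, 17.74 and 17.73 with DAC and rose (log2 difference 0.25 ± 0.026 (SE), limma adjusted p = 2.98e-05). Cytosolic ribosomal protein genes behaved differently from the ribosome assembly genes. Only 23 of 86 were called lower (26.7%) and 4 were called higher. Beside this, 21.2% of all genes and 54.4% of those at a level of 13 and above were called lower. Neither share was matched to the levels of the ribosomal protein genes. The ribosomal protein median of -0.059 became 0.019 under quantile normalization. RPLP0 (-0.02) and RPS4X (-0.01) were not called, though RPS4X was at 0.11 and called higher under quantile normalization. The same normalization brought the medians of the assembly genes to -0.11, of the synthetases to -0.082 and of the translation factors to -0.026.

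Nuclear genes for mitochondrial proteins and genes encoded by the mitochondrial genome went in opposite directions. Mitochondrial ribosomal proteins fell in 67 of 79 and rose in 0 (median -0.20), complex I subunits in 29 of 37, and enzymes of the tricarboxylic acid cycle in 20 of 25. DLAT, a pyruvate dehydrogenase subunit, was at 13.36, 13.43 and 13.45 in DMSO and 13.17, 13.05 and 13.04 with DAC (log2 difference -0.33 ± 0.036 (SE), limma adjusted p = 3.89e-05), and FH, fumarase, fell by 0.32. By contrast 11 of the 15 mitochondrially encoded genes rose and 0 fell (median 0.19). CYTB, a subunit of complex III, was at 12.69, 12.59 and 12.70 in DMSO and 12.83, 12.91 and 12.93 with DAC (log2 difference 0.23 ± 0.034 (SE), limma adjusted p = 2.63e-04). ND4, a subunit of complex I, was at 11.25, 11.08 and 11.30 in DMSO and 11.41, 11.50 and 11.49 with DAC, and ATP6, of the ATP synthase, at 9.73, 9.79 and 9.81 in DMSO and 10.03, 10.06 and 10.12 with DAC. The 3 DAC samples were above the 3 DMSO samples in each of these 3 genes. Over the 14 alternatives the medians ranged from -0.232 to -0.149 for the mitochondrial ribosomal proteins and from 0.154 to 0.215 for the mitochondrial genome. Under quantile normalization the median of complex I was -0.089 and that of the cycle -0.060.

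Spliceosome, SR and hnRNP genes were lower in 74 of 106 and higher in 2 (median -0.14), a count of lower genes that ran from 51 to 80 over the alternatives. Proteins of the small nuclear ribonucleoproteins fell in 46 of 55, with SNRPG (-0.36) and SNRPF (-0.35) at the head, and SRRM2 (0.20) rose. The hnRNP genes fell in 16 of 30 (53.3%, at a median level of 14.2), near the 54.4% of all genes at a level of 13 and above. DEAD-box helicases had 37 of 58 lower and 0 higher, and nuclear pore genes 19 of 31 lower and 2 higher. Heat shock chaperones fell in 30 of 51, all 8 subunits of the chaperonin CCT fell (median -0.23), and proteasome subunits fell in 31 of 41. Cytosolic chaperones fell in 60% (median level 12.39), beside 41% of all genes at a level of 11 to 13. Those of mitochondria or the endoplasmic reticulum fell in 56.25% (median level 13.74), near the 54.4% at 13 and above. HSPE1, the mitochondrial co-chaperonin, was at 13.20, 13.20 and 13.20 in DMSO and 12.93, 12.86 and 12.78 with DAC (log2 difference -0.34 ± 0.035 (SE), limma adjusted p = 2.28e-05). DNAJB2 was the 1 chaperone that rose (0.38). Quantile normalization brought the medians of the spliceosome list to -0.072, of CCT to -0.12 and of the proteasome to -0.062.

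**Figure D3:**
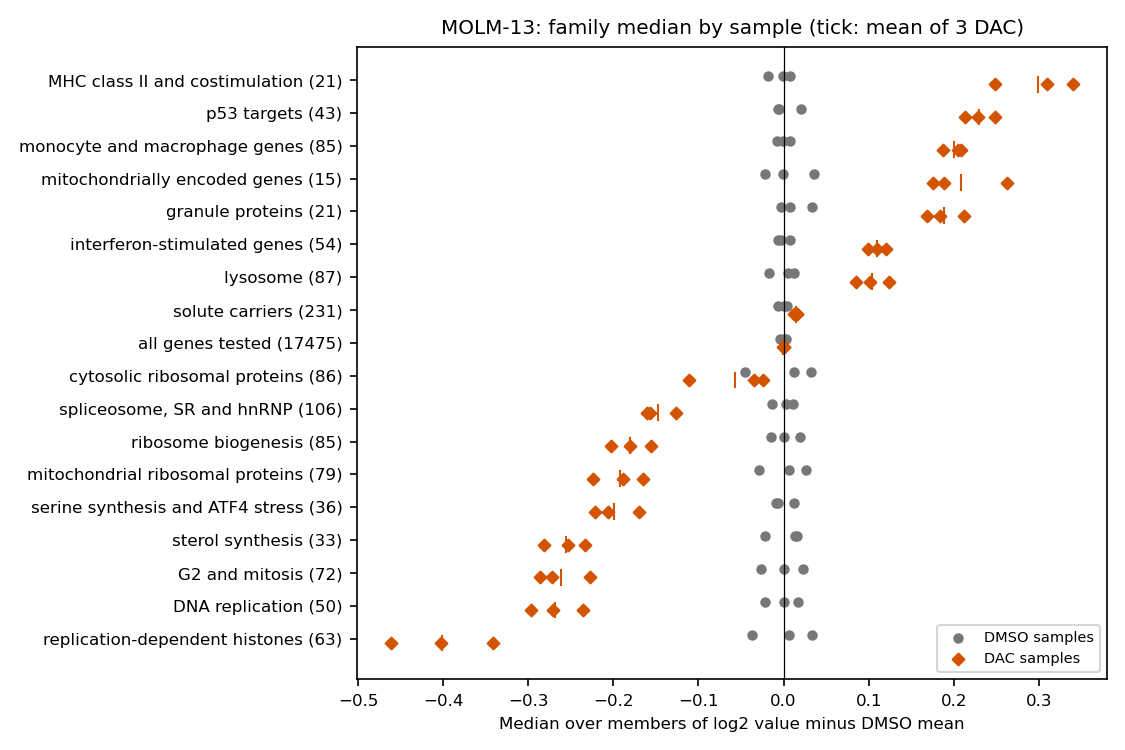
Median over the members of each family (number tested in parentheses) of the log2 value minus the gene's DMSO mean, in each DMSO sample (grey circles) and each DAC sample (orange diamonds) of MOLM-13, with a short tick at the mean of the 3 DAC values. The DAC samples of the histone family lie between -0.461 and -0.341, those of the p53 targets between 0.213 and 0.248, and those of the cytosolic ribosomal proteins, whose median changes sign under quantile normalization, overlap the DMSO samples.

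Targets of p53, the transcription factor that answers DNA damage, were higher in 29 of 43 and lower in 2 (median 0.25). All 8 genes of cell cycle arrest rose. Besides CDKN1A these included BTG2, at 9.71, 9.66 and 9.77 in DMSO and 10.39, 10.38 and 10.17 with DAC. Of the 20 targets in repair and metabolism 13 rose. ZMAT3, listed with them, was at 12.22, 12.36 and 12.30 in DMSO and 13.02, 12.91 and 13.003 with DAC. MDM2, the ubiquitin ligase that degrades p53, was at 15.11, 15.12 and 15.09 in DMSO and 15.70, 15.64 and 15.65 with DAC (log2 difference 0.56 ± 0.024 (SE), limma adjusted p = 5.77e-08). Its fold was 1.47, with less than 0.1 between the replicates of a group. EDA2R, a death receptor, was at 8.38, 8.39 and 8.34 in DMSO and 9.18, 9.03 and 9.07 with DAC, and TP53INP1 rose by 0.61, FDXR by 0.54 and SESN1 by 0.29. Of the 9 apoptosis genes 5 rose, BAX (0.22) and FAS (0.25) among them, and 2 fell, TNFRSF10A (-0.15) and TRIAP1 (-0.11, with the call lost in 5 of 14 alternatives). MIR34AHG, the host transcript of the microRNA miR-34a, was at 9.27, 9.10 and 9.12 in DMSO and 9.75, 9.82 and 9.81 with DAC (log2 difference 0.63 ± 0.05 (SE), limma adjusted p = 4.46e-06). In the BCL2 family, the pro-death gene BMF rose to 11.75, 11.74 and 11.76 with DAC from 11.25, 11.27 and 11.21 in DMSO, BBC3 rose by 0.25, and BCL2 (-0.22) and BID (-0.25) fell.

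Monocyte and macrophage genes rose in 58 of 85 and fell in 3 (median 0.21). Of 45 surface receptor genes 33 rose, of 8 Fc receptor genes 6, and of 32 genes for secreted or lysosomal proteins 19. LYZ, lysozyme, was at 16.43, 16.51 and 16.49 in DMSO and 17.33, 17.21 and 17.22 with DAC (log2 difference 0.78 ± 0.036 (SE), limma adjusted p = 1.50e-07). CSF1R, the receptor for macrophage colony-stimulating factor, was at 9.78, 9.80 and 9.90 in DMSO and 10.27, 10.30 and 10.42 with DAC, and CD68, a lysosomal glycoprotein of macrophages, at 11.54, 11.55 and 11.59 in DMSO and 12.23, 12.30 and 12.20 with DAC. VCAN, a proteoglycan of classical monocytes, was at 11.25, 11.28 and 11.28 in DMSO and 11.88, 11.70 and 11.80 with DAC. None of these 4 genes had overlapping groups. The 3 that fell were CD300A (-0.38), CCR2 (-0.28) and FABP5 (-0.27). CD14, MRC1 and CD163 were not listed, and CTSS (-0.03) was not called, so the list held markers with no rise or no value.

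Granule protein genes rose in 13 of 21 and fell in 3. MPO, the myeloperoxidase of azurophil granules, was at 13.08, 13.001 and 13.04 in DMSO and 13.76, 13.80 and 13.74 with DAC (log2 difference 0.72 ± 0.026 (SE), limma adjusted p = 4.07e-08). ORM1, stored in later granules, was at 7.36, 7.40 and 7.18 in DMSO and 8.07, 8.16 and 8.03 with DAC. The serine protease genes of the same granules changed less, with AZU1 at 0.17, PRTN3 at 0.16 (call lost in 6 of 14 alternatives) and ELANE not called (0.13). RNASE2 (-0.13), PRG2 (-0.16) and CTSC (-0.10) fell, and each of these 3 calls was lost under quantile normalization. Of 11 genes of the phagocyte oxidase and its regulators 3 rose, 2 fell and 6 were not called. CYBB was at 9.91, 9.97 and 9.95 in DMSO and 10.86, 10.88 and 10.74 with DAC, and NCF1 rose by 0.36. NCF1 has near-identical pseudogenes, NCF1B (0.34) and NCF1C (0.37), so its share of reads is uncertain. The S100 genes rose in 5 of 7, among them S100A9, at 7.62, 7.65 and 7.60 in DMSO and 8.58, 8.39 and 8.29 with DAC, and S100A8 (0.52), which form the calprotectin complex. ANXA1, annexin A1, was at 10.10, 10.15 and 10.25 in DMSO and 10.99, 10.91 and 10.91 with DAC (log2 difference 0.77 ± 0.041 (SE), limma adjusted p = 2.33e-07). CEBPE, a transcription factor of granulocyte maturation, was at 8.24, 8.11 and 8.24 in DMSO and 8.86, 8.88 and 8.82 with DAC (log2 difference 0.66 ± 0.062 (SE), limma adjusted p = 1.48e-05), whereas IRF8, which guides monocyte fate, fell by 0.22.

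Genes of adhesion, complement and immune receptors rose in part. ITGAM and ITGAX, the alpha chains of complement receptors 3 and 4, were at 10.06, 10.14 and 10.09 in DMSO and 10.78, 10.73 and 10.69 with DAC, and at 9.66, 9.52 and 9.55 in DMSO and 10.16, 10.25 and 10.23 with DAC. Their beta chain ITGB2 was at -0.07, lost its call in 8 of 14 alternatives and was at 0.026 under quantile normalization. Integrin and adhesion genes as a whole had 16 of 27 higher and 6 lower, and complement genes 11 of 19 higher and 2 lower. CFP, properdin, which stabilizes the alternative pathway convertase, rose by 0.44. The LILR and SIGLEC receptors, which signal through inhibitory or activating motifs on myeloid cells, were higher in 13 of 20 and lower in 0 (median 0.17). SIGLEC10 was at 8.08, 8.01 and 8.01 in DMSO and 8.44, 8.50 and 8.43 with DAC (log2 difference 0.42 ± 0.06 (SE), limma adjusted p = 2.33e-04), and SIGLEC7 and SIGLEC9 rose by 0.33 and 0.36. LILRB4 was not called (-0.04). Cytokine receptor genes rose in 14 of 28, led by IL21R (0.54) and IL10RA (0.40), and fell in 3, among them IL3RA (-0.22). Among receptor tyrosine kinases RET rose (0.50), and FLT3, the receptor mutated in this line, was at 15.16, 15.24 and 15.20 in DMSO and 14.93, 14.90 and 14.88 with DAC and fell (log2 difference -0.29 ± 0.025 (SE), limma adjusted p = 7.58e-06).

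Antigen presentation genes of class II and costimulation were higher in 11 of 21 and lower in 1, and their median of 0.32 was the highest of the lists. Over the 14 members listed for both lines the MOLM-13 median was 0.082. CIITA, the master regulator of class II genes, was at 9.59, 9.38 and 9.35 in DMSO and 9.79, 10.12 and 9.94 with DAC (log2 difference 0.51 ± 0.079 (SE), limma adjusted p = 4.21e-04). HLA-DRA was at 9.71, 9.79 and 9.74 in DMSO and 10.24, 10.27 and 10.17 with DAC, and CD74, the invariant chain, at 12.46, 12.40 and 12.42 in DMSO and 12.68, 12.80 and 12.76 with DAC. CIITA spread more among the DAC samples than the other 2 genes did, and no groups overlapped. HLA-DMB rose by 0.33 and HLA-DMA by 0.32, while HLA-DPB1, with values near 4, was not called (0.04). The costimulatory ligands CD86, at 8.87, 8.92 and 9.01 in DMSO and 9.79, 9.83 and 9.76 with DAC, TNFSF9 (0.58) and CD70 (0.55) rose, and CD80 was not called (0.07). In class I, 4 of the 6 heavy chain and partner genes rose, among them HLA-B (0.34) and HLA-C (0.32). Of 14 processing genes 2 rose and 4 fell, among them PSME2 (-0.24). The share that fell was 28.6% at a median level of 12.57, beside 41% of all genes at a level of 11 to 13. The HLA genes resemble each other closely, so reads may be shared among them.

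Interferon-stimulated genes rose in 28 of 54 and fell in 2, with a small median of 0.11. TRIM22, an antiviral ubiquitin ligase, was at 12.43, 12.50 and 12.45 in DMSO and 13.03, 12.999 and 12.97 with DAC (log2 difference 0.54 ± 0.026 (SE), limma adjusted p = 1.78e-07). IFI6 was at 6.67, 6.71 and 6.71 in DMSO and 7.06, 7.15 and 7.19 with DAC, and ISG15, the ubiquitin-like modifier, at 9.17, 9.19 and 9.10 in DMSO and 9.34, 9.38 and 9.25 with DAC. The rise of ISG15 was close to the threshold (limma adjusted p = 0.0439), and its call was lost in 8 of 14 alternatives. OAS1 rose by 0.25, MX1 was not called (0.02), and USP18 fell by 0.23, a call lost without DMSO replicate 2 (limma adjusted p = 0.0579). Of 25 nucleic acid sensor genes 12 rose and 1 fell, with TLR9 (0.44) and NLRP1 (0.42) at the head. The interferon-stimulated response element, searched as GAAA and GAAA separated by any 2 bases, on either strand, was in 3.03% of the protein-coding windows. Only 42 of the 54 listed genes had a window, fewer than 80%, so a share for the list is void. The stretches of IFI6 (chr1:27672268-27672357, minus strand) and ISG15 (chr1:1013372-1013446, plus strand, both GRCh38.p14) are printed because they hold repeated matches, shown in capitals. Of the 10 listed genes with at least 2 matches 5 rose and 5 were not called.
IFI6: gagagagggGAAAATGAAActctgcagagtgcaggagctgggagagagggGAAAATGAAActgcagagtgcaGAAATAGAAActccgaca
ISG15: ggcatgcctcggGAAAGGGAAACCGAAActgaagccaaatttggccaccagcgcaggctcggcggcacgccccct
In IFI6 the element occurs at 3 places, starting 156, 115 and 93 bases before the annotated start, and in ISG15 2 overlapping matches start at 113 and 107.

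Lysosomal genes rose in 43 of 87 and fell in 8 (median 0.098). The acid hydrolases rose in 27 of 51 and the membrane and transport genes in 16 of 36. IDS, which cleaves sulfate from glycosaminoglycans, was at 10.58, 10.48 and 10.65 in DMSO and 11.30, 11.26 and 11.34 with DAC (log2 difference 0.73 ± 0.042 (SE), limma adjusted p = 4.72e-07). PSAP, the precursor of sphingolipid activators, was at 13.75, 13.79 and 13.78 in DMSO and 14.29, 14.26 and 14.19 with DAC, and CTSD, cathepsin D, at 12.80, 12.74 and 12.80 in DMSO and 13.22, 13.28 and 13.22 with DAC. Each of these 3 genes was higher in all 3 DAC samples than in any DMSO sample. TFEB, the transcription factor of lysosome formation, rose by 0.26, and LAMP1 fell by 0.13, a call lost in 3 of 14 alternatives. The family median was 0.061 after centring. The CLEAR element bound by that factor, TCACGTGA (its own reverse complement), was in 1.99% of protein-coding windows, and with 67 windows for 87 genes a share for the list is void. The 200 protein-coding genes with a match had a median difference of -0.044, beside -0.022 for all 10050 with a window. Among listed genes with a window, the medians were 0.12 with a match and 0.08 without. PLBD2 and GAA, which rose by 0.39 and 0.24, hold the full element close to their start and are printed as 2 of the 11 listed genes with a match, of which 8 rose, 1 fell (LAMP1) and 2 were not called. Capitals mark the element in these stretches, from chr12:113358487-113358586 and chr17:80101481-80101580 (GRCh38.p14, plus strand).
PLBD2: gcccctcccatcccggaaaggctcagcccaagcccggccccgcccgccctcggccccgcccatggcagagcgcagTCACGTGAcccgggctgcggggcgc
GAA: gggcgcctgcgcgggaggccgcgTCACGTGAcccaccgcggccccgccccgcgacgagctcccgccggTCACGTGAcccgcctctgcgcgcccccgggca
GAA, the acid alpha-glucosidase, carries the element at 77 and 32 bases before the start, and PLBD2 at 25.

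Some immediate-early genes varied widely among the DMSO samples. FOS was at 13.74, 13.67 and 14.30 in DMSO and 14.34, 14.48 and 14.70 with DAC (log2 difference 0.60 ± 0.14 (SE), limma adjusted p = 0.00583), and DMSO replicate 3 was far above the other DMSO samples. FOSB and DUSP1 had overlapping groups, and their calls were lost in 8 and 5 of 14 alternatives. Of 30 AP-1 and EGR genes 11 rose and 3 fell, and of 44 NF-kB and inflammatory genes 16 rose and 6 fell. TNFAIP2 (0.41) and TNFSF14 (0.48) rose and TRAF2 (-0.24) fell. MYC was at -0.13 and lost its call under quantile normalization. Of its network, MXD4, an antagonist of MYC, rose by 0.33.

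The share of the KMT2A fusion programme called lower was near that of all genes. Of 41 genes of the HOXA, MEIS1 and KMT2A list 11 were lower (26.8%, beside 21.2% of all genes) and 3 higher (7.32%, beside 15.4%). By role, 5 of 17 homeobox genes, 4 of 9 other programme genes and 2 of 15 genes for KMT2A and its partners were lower. Their shares were 29.4%, 44.4% and 13.3%, at median levels of 9.64, 14.18 and 12.38. Among all genes 19.75% fell at a level of 9 to 11, 54.4% at 13 and above, and 41% at 11 to 13. Over the whole list the median of -0.034 became 0.008 under quantile normalization. HOXA9 was at 12.43, 12.46 and 12.41 in DMSO and 12.30, 12.27 and 12.27 with DAC, and MEIS1 at 12.51, 12.57 and 12.62 in DMSO and 12.41, 12.44 and 12.38 with DAC, with differences of -0.15 and -0.16. The call of HOXA9 was lost in 8 of 14 alternatives and that of MEIS1 under quantile normalization. KMT2A itself was at 0.08, and its call was lost in 9 of 14 alternatives.

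Gene classes often studied for reactivation by loss of methylation were listed only in part. Of all genes tested 36.6% were called, 15.4% higher and 21.2% lower, so a lack of calls was not particular to these classes. Of 76 germline and cancer-testis genes 18 were listed, of which 3 rose and 5 fell. A gene with no listed value gave no test here, so silence and activation could not be measured for the others. TDRD9, a helicase of the germline piRNA pathway, was at 7.59, 7.66 and 7.54 in DMSO and 8.10, 8.27 and 8.14 with DAC (log2 difference 0.58 ± 0.059 (SE), limma adjusted p = 2.38e-05), and PIWIL4, an Argonaute of the same pathway, rose by 0.25. TEX15, a germline gene, fell by 0.38. Of 24 listed imprinted genes 5 rose and 4 fell, and KCNQ1OT1, the long noncoding RNA of an imprinted cluster, was at 9.90, 9.89 and 9.82 in DMSO and 10.28, 10.45 and 10.51 with DAC (log2 difference 0.55 ± 0.06 (SE), limma adjusted p = 3.89e-05). The higher values lay in DAC replicates 2 and 3. Of 29 genes derived from transposable elements 5 rose and 3 fell. Their median of 0.0027 became -0.034 after centring, beside -0.036 for all genes. ERVK13-1 rose by 0.26 and ERVK3-1 fell by 0.27. Among 432 zinc finger genes with ZNF symbols 79 rose (18.3%) and 42 fell (9.72%). The zinc finger median of 0.033 became -0.0037 after centring, where that of all genes was -0.036. Solute carriers were split evenly, with 51 of 231 higher and 43 lower.

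By biotype, 17.1% of 12269 protein-coding genes rose and 29% fell, and of 2153 long noncoding RNAs 17.1% rose and 2.55% fell (367 and 55 genes, which became 262 and 180 after centring). The biotypes were not matched for level, which also went with direction. Among all genes 16.7% rose and 1.10% fell at a level of 5 to 7, and 13.7% rose and 41% fell at 11 to 13. Biotype and level were not told apart here. NEAT1, the scaffold of paraspeckles, was at 15.27, 15.19 and 15.33 in DMSO and 15.995, 16.10 and 16.21 with DAC (log2 difference 0.84 ± 0.06 (SE), limma adjusted p = 2.31e-06), and MALAT1, a nuclear speckle RNA, at 17.96, 17.89 and 17.86 in DMSO and 18.31, 18.36 and 18.39 with DAC (log2 difference 0.45 ± 0.034 (SE), limma adjusted p = 3.13e-06). For both RNAs all DAC values exceeded all DMSO values. LOC105375855, a long noncoding RNA, was at 11.56, 11.48 and 11.52 in DMSO and 12.51, 12.44 and 12.48 with DAC, and LOC102724908 at 11.02, 10.96 and 10.90 in DMSO and 11.65, 11.64 and 11.63 with DAC. DANCR, a snoRNA host transcript, fell by 0.38 and SNHG1 by 0.30, whereas GAS5, another host, rose by 0.17. Of 29 snoRNA host genes 10 fell and 4 rose. Of 1647 genes with LOC symbols 277 rose and 25 fell. Their median of 0.036 became -0.0011 after centring, where that of all genes was -0.036. TERC, the telomerase RNA, was at 10.72, 10.73 and 10.67 in DMSO and 10.84, 11.17 and 10.98 with DAC (log2 difference 0.29 ± 0.065 (SE), limma adjusted p = 0.00421). Small RNAs were rarely called, with medians of 0.003 for microRNA precursors and -0.003 for C/D box snoRNAs. Below a level of 3, where differences were small, 3.3% of all genes were called. Few calls therefore do not show that these RNAs were stable. Of 428 microRNA precursors 16 rose and 4 fell, of 214 C/D box snoRNAs 1 rose and 6 fell, and of 126 H/ACA box snoRNAs 3 rose and 5 fell. After centring, which lowered every difference by 0.037, 1 microRNA precursor rose and 212 fell, and among the C/D and H/ACA box snoRNAs 59 and 29 fell and 0 rose.

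Genes were also grouped by the stem of their symbol, and the 166 stems with at least 12 tested members were ranked by median. The lowest were H (nearly all histones and their pseudogenes, 90 genes, median -0.37), MRPS (31 genes, -0.20), TIMM (16, -0.20), EXOSC (12, -0.18) and MRPL (53, -0.18). TIMM genes, which encode import channels of the inner mitochondrial membrane, fell in 13 of 16, and EXOSC genes, of the RNA exosome, in 9 of 12. The highest were SIGLEC (12 genes, 0.26), TAS (18, 0.20), S (S100 and sphingosine receptor genes, 12, 0.19), COL (14, 0.17) and NPIPB (14, 0.14). COL genes rose in 10 of 14, with COL9A2, a cartilage collagen, at 9.28, 9.23 and 9.12 in DMSO and 9.75, 9.69 and 9.70 with DAC (log2 difference 0.50 ± 0.049 (SE), limma adjusted p = 1.81e-05). The TAS stem held bitter taste receptor genes, of which TAS2R20 was at 7.99, 8.001 and 8.11 in DMSO and 8.31, 8.29 and 8.29 with DAC. Its 3 DAC values lay within 0.02 of each other, above the DMSO values. The TAS2R and NPIPB genes are families of close copies, so their reads may be shared.

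The direction of change went with a gene's level. The level is the mean log2 value over the 9 MOLM-13 samples. It also reflects transcript length and served only to sort the genes. Except where a level is given, the shares of all genes set beside the families above were not matched for level. At 5 to 7, 16.7% of genes rose and 1.10% fell. At 7 to 9, 25.1% rose and 4.49% fell. At 11 to 13, 13.7% rose and 41% fell, and at 13 and above, 10.6% rose and 54.4% fell. Quantile normalization, which makes all samples share 1 distribution, flattened this trend by construction. The medians at the levels from 7 to 9 and from 11 to 13 were 0.073 and -0.060 as deposited and -0.014 and -0.0070 afterwards. Within protein-coding genes of levels 9 to 13, promoter composition also went with direction. Of 265 genes whose windows had a ratio of observed to expected CpG below 0.25, 39.2% rose and 17.4% fell. Of 4520 with a ratio of 0.75 or above, 12.5% rose and 36.4% fell. Families differed in this respect. All 16 LILR and SIGLEC windows and 10 of 17 class II and costimulation windows had a ratio under 0.5, beside 0 of 60 for G2 and mitosis, 1 of 42 for DNA replication and 14% of all protein-coding windows. The p53 targets and lysosomal genes, with more calls higher than lower, had 3 of 33 and 6 of 67 windows under 0.5, though fewer than 80% of their members had a window. Gene span showed a similar gradient, from 12.2% higher and 41.9% lower for genes under 10 kb to 22.7% and 22% for those of 100 kb and above. These are descriptions across genes, which are not independent of each other.

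**Figure D4:**
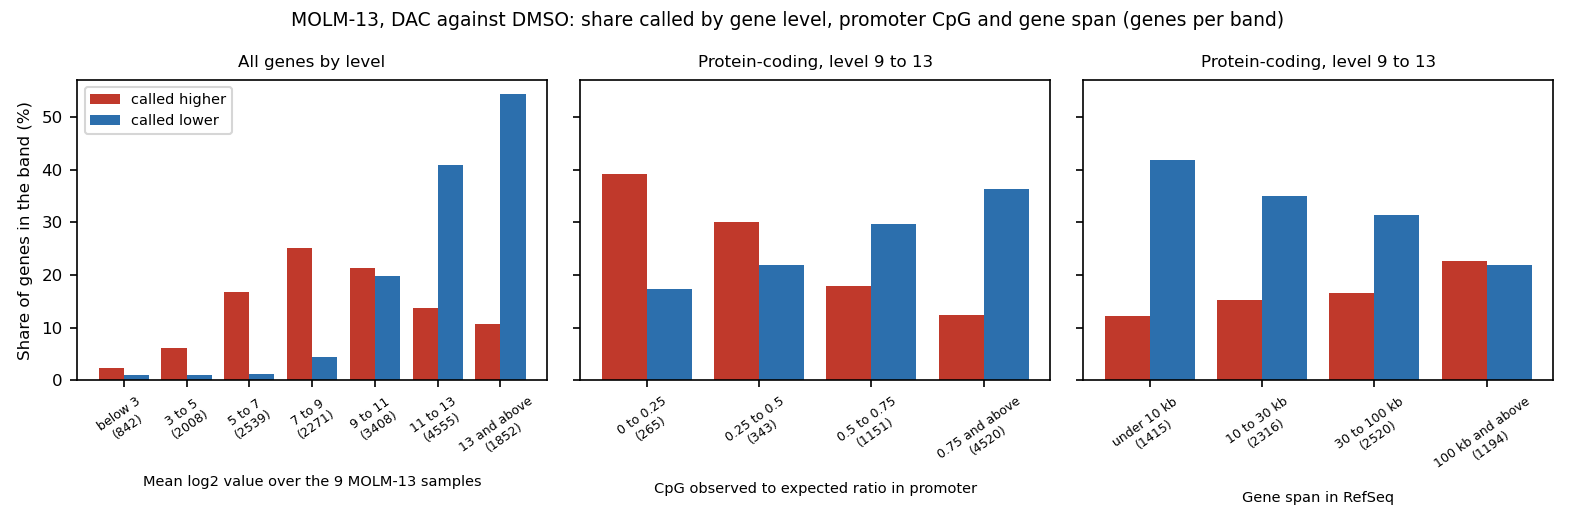
Share of genes called higher (red) or lower (blue) with DAC in MOLM-13, by mean log2 level over 9 samples (left), by the ratio of observed to expected CpG in the promoter window (middle) and by gene span (right), with the number of genes per band in parentheses. The share called lower rises with level, to 54.4% in the top band, and with promoter CpG, and falls with gene span.

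The same contrast in HL-60 differed for most of these families. A test of the difference between the 2 effects, over 15474 genes listed for both lines, gave 1871 genes (12.1%) with a more positive and 2767 (17.9%) with a more negative effect in MOLM-13. The lines received different concentrations, so line and dose cannot be told apart, and levels were not compared across lines. Of the 50 replication genes 49 were more negative in MOLM-13 (median -0.27, beside 0.013 in HL-60). So were 70 of 72 G2 and mitosis genes (-0.26 and 0.063) and 54 of 56 histone genes (-0.41 and -0.0084). For PBK the effect was -0.52 in MOLM-13 and 0.041 in HL-60 (limma adjusted p = 3.65e-08 for the difference). Of 33 sterol genes 22 were more negative and 4 more positive. Of 39 p53 targets 22 were more positive and 1 more negative (median 0.22, beside 0.0027 in HL-60). MDM2 was at 0.56 in MOLM-13 and at 0.0026 in HL-60 (limma adjusted p = 6.68e-10 for the difference), and CDKN1A was not analysed here in HL-60. Monocyte and macrophage genes were more positive in 31 of 61 and more negative in 6. Granule proteins showed no lean to either line, with 6 of 19 more positive, 6 more negative and medians of 0.17 and 0.17. Mitochondrial ribosomal proteins had a negative median in both lines (-0.20 and -0.087), and 28 of 79 were more negative in MOLM-13. Cytosolic ribosomal proteins went the other way, with 16 of 85 more positive and 4 more negative in MOLM-13. Their HL-60 median was -0.11, beside -0.060 in MOLM-13, which turned positive under quantile normalization.

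**Figure D5:**
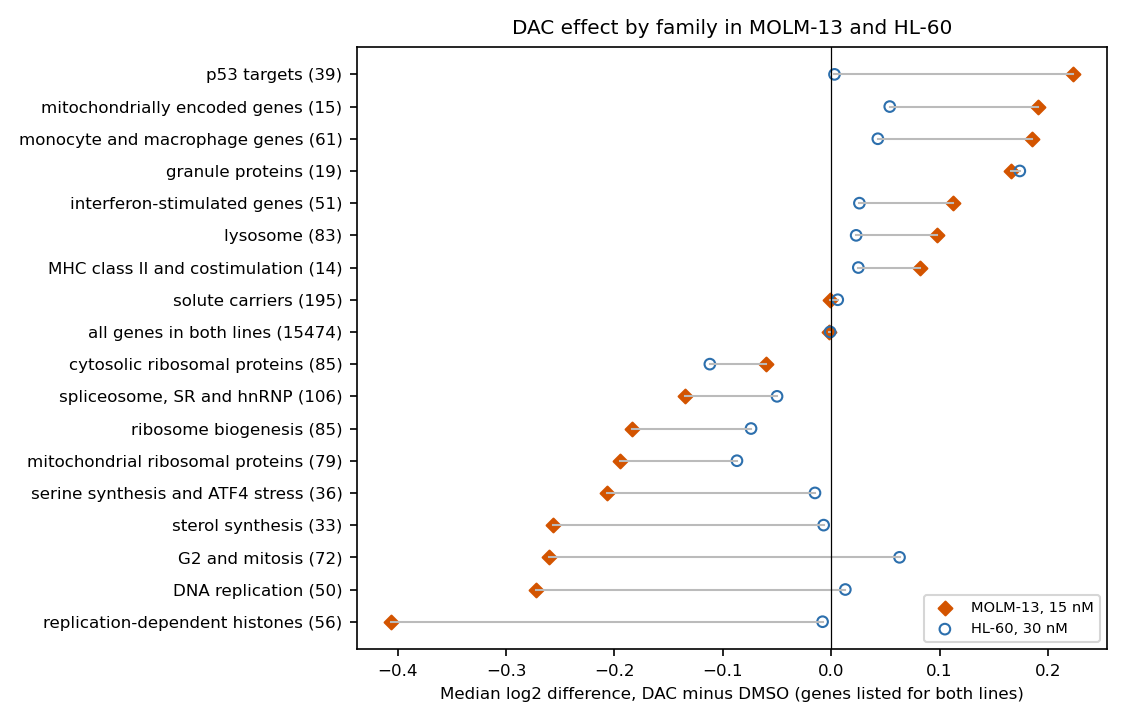
Median log2 difference of DAC minus DMSO per family in MOLM-13 (orange diamonds, 15 nM) and HL-60 (open blue circles, 30 nM), over the genes listed for both lines (number in parentheses), joined by a line for each family. The lines are longest for the histone, replication, mitosis, sterol and p53 families, and the granule proteins have nearly the same median in both, and the MOLM-13 value of the cytosolic ribosomal proteins changes sign under quantile normalization.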

How the data were processed

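Stranded total RNA libraries were made from cells exposed for 48 h, per the labels. Per the submitters' processing notes, FastQC, Trimmomatic 0.38, HISAT2 and StringTie were used with hg19. The authors deposited 1 log2 value per gene and sample, normalized by a method not given in the sources used here, so depth is unknown. The median absolute difference was 0.00384 below a level of 3. No other transformation was applied. limma 3.58.1 (R 4.3.3) was fitted to the 9 MOLM-13 samples with 1 mean per group, a mean-variance trend and Benjamini-Hochberg adjustment over 17475 genes, with calls at 0.05. A filter on a linear value of at least 1 in 3 samples removed no gene. The difference between lines was a contrast in a fit of all 18 samples. Families were described by counts and medians. RefSeq (GRCh38.p14) supplied biotypes for the 98% of Gene IDs that matched, gene spans and promoter windows, with no coordinate conversion.

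The members and lists were chosen with earlier results of these data known. Named genes were the 10 highest and 10 lowest called genes of mean log2 value at least 5 without overlap or readthrough, up to 3 called members of each list in each direction, a set of target and marker genes, and the 5 highest and lowest of the symbol stems with at least 12 members. Another 87 genes were named after their values were seen. The fit, tested on simulated data, recovered 79.1%, 98.5% and 100% of changes of 0.25, 0.5 and 1 log2 unit, with 11 false calls among 17475 genes. The simulation drew noise independently for each gene and changed 67, 67 and 66 genes, all of mean DMSO log2 value at least 5. It held no shift shared by the genes of a sample, so its false calls do not measure the error among the real calls. The alternatives were other scalings, filters, a pseudocount of 1, no trend, the 6 compared samples alone, a replicate block and leaving out each replicate. Values of some individual genes are not reported here.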

Additional observations from a re-analysis of the deposited data

Results flagged for a closer look

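The DAC effect differed between MOLM-13 (15 nM) and HL-60 (30 nM) by the test of the difference itself (limma over both lines, adjusted p below 0.05) for 1871 genes in the positive and 2767 in the negative direction. Line and concentration cannot be told apart in these counts. Among the genes at the upper end in MOLM-13, the log2 effects of the 2 lines, HL-60 subtracted from MOLM-13, differed by 1.28 for C3, 0.90 for CD86, 0.77 for FGR, 0.70 for DNASE2, 0.42 for CHRNA6, 0.41 for CYBB and 0.18 for ADGRE4P. Among those at the lower end the differences were -0.94 for FADS2, -0.86 for IGLL1, -0.66 for H2BU1, -0.61 for NREP, -0.60 for INSIG1, -0.59 for SCD, -0.51 for H4C9, -0.46 for H4C12 and -0.46 for H4C11. AXL, LOC105375855, CDKN1A and IGKC were not listed for HL-60 and gave no such value.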

How the results depend on the processing

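Centring each sample on its median raised the count of lower genes from 3705 to 5731, and a minimum difference of 0.25 reduced the counts to 882 higher and 656 lower. Quantile normalization gave 2599 higher and 2979 lower, of which 1869 and 2500 were genes also called without it. Leaving out 1 replicate gave 2097 to 2640 higher and 3004 to 3728 lower genes, and, for the difference between the lines, 1562 to 2111 genes more positive and 2354 to 3017 more negative in MOLM-13. Of 337 named genes 313 were called, and 260 kept call and direction under all 14 alternatives. A total of 3 genes changed sign with a call on at least 1 side: ITGB2 (0.026) and RPS4X (0.112) under quantile normalization, and RPPH1. RPPH1 was not called in the main fit (-0.096). It was at -0.239 without DAC replicate 1, and at 0.169 and called without DAC replicate 3. The cause of these changes was not tested. Of 113 families, 35 kept a median below 0, 32 kept one above 0 and 46 changed sign under some alternative. Depth is unknown, so no counting error can be given.

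Same-numbered DMSO and DAC samples did not deviate together (r = -0.16, -0.106 and -0.0533 across genes). Differently numbered samples gave r from -0.0622 to 0.159. Deviations from a mean of 3 samples depend on each other, so these values cannot settle whether the numbers pair the samples. With a replicate block 2534 genes were higher and 3428 lower, of which 2438 and 3400 were also called without it, and the difference between lines gave 1755 genes more positive and 2533 more negative in MOLM-13.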
